A study of Solanum lycopersicum with 4 samples.

Results

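The genes described here are 8 tomato genes of the SBP-box family that the deposited tables list as targets of the microRNAs miR156 and miR157, other than the ripening regulator CNR. They were chosen by gene identifier, from the SBP-box annotation and the small RNA name together, and not by their tag values. They are 8 of 5373 cDNAs with a listed peak, and 24 of 12952 table entries belong to them. 21 of these entries stand under miR156_157, and the 3 under other small RNA names hold 0 TP10M. The annotation calls Solyc05g015510 and Solyc04g045560 squamosa promoter-binding-like protein 11. Solyc05g012040, Solyc03g114850 and Solyc12g038520 are called squamosa promoter binding protein 3. Solyc10g078700 and Solyc05g015840 are squamosa promoter-binding proteins and Solyc10g009080 is a squamosa promoter binding-like protein.

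SBP-box proteins are plant transcription factors that bind DNA through a conserved zinc-binding domain. In Arabidopsis many of them, there called SPL genes, carry a site for miR156, which is abundant in young shoots and wanes as the plant ages. The SPL proteins then promote the change to the adult shoot and to flowering. They also act upstream of miR172, whose targets are AP2-like genes. In tomato, raised levels of miR156 are known to alter flower and fruit form. CNR is needed for normal ripening. A plant microRNA guides the protein AGO1 to slice a matching mRNA, which leaves an uncapped 5′ end opposite position 10 of the microRNA.

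Those ends were sequenced by PARE (parallel analysis of RNA ends), which reads the 5′ end of RNA that has lost its cap but kept its poly(A) tail. RNA came from whole fruits of the variety Ailsa Craig, from plants grown in a greenhouse, at 4 stages with 1 library each. The stages were 5 days after pollination (the youngest fruit), mature green, breaker (when colour first turns) and 7 days after breaker, which the tables call red ripe. The sources used here do not say how many fruits or plants went into a library. Values are tags per 10000000 (TP10M) at a peak or on the whole cDNA, rounded to whole numbers by the authors. Without replicates the values compare 4 libraries, and no difference between stages has a test. The breaker library listed 3328 sites in all, against 5922 to 7215 in the other 3. A peak of category 4 was always listed at 0 TP10M and any other peak at 1 or more. The sources used here give no library totals, so the depth is unknown and no counting interval was computed. In whole fruits, fewer cells that express a gene and less RNA per cell cannot be told apart.

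All 8 genes had a listed peak opposite position 10 of miR156_157, and 5 of them were in category 0 or 1 there in at least 1 library. CleaveLand, the program behind the tables, grades a peak by its height on the cDNA: category 0 is its only highest position, category 1 a highest position tied with others, category 2 a lower peak and category 4 a single read. The headers of the tables do not define these grades. Solyc10g078700 was the only gene of category 0 at 5 days after pollination. At mature green it was joined in category 0 by Solyc05g015510, Solyc05g012040 and Solyc04g045560, while Solyc05g015840 was in category 1. At breaker Solyc05g015510 and Solyc05g012040 were in category 0 and Solyc10g078700 in category 1. At 7 days after breaker all of these 3 were in category 0. Counts of category 0 or 1 were thus 1 of 8 listed genes, 5 of 8, 3 of 6 and 3 of 6 in stage order. They include peaks of only 1 TP10M: Solyc05g015840 at mature green, and Solyc10g078700 at breaker and at 7 days after breaker. The share of all listed cDNAs in category 0 or 1 was not computed for each library. The course of these counts over the stages is therefore a description, and it may not be particular to the members. In the authors' deposited table the category 0 or 1 peaks opposite position 10 had p-values of at most 0.02 and q-values of at most 0.04. The p-values at category 2 peaks opposite position 10 were 0.48 to 1. Members with the same alignment penalty and category in a library had the same p-value. The p-values are therefore not support separate from the category.

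The 4 genes with the best match to the microRNA had the highest site values. The deposited alignment penalty, lower for a better match, was 2 for Solyc05g015510, Solyc10g078700 and Solyc04g045560 and 2.5 for Solyc05g012040. The highest site values of these genes were 55, 51, 17 and 15 TP10M, and each was in category 0 in at least 1 library. Solyc12g038520 and Solyc05g015840 had a penalty of 3, Solyc03g114850 had 4 and Solyc10g009080 had 5. None of these 4 exceeded 8 TP10M at position 10 or reached category 0. Besides CNR, the other cDNAs listed under miR156_157 opposite position 10 had a median penalty of 6.5 (4 to 7). In category 0 or 1 in any library were 3 of their 118 entries (2.54%), against 5 of the 8 SBP-box entries (62.5%). These 5 include Solyc05g015840, whose tied peak held 1 TP10M.

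Solyc05g015510 kept its cut ends through ripening. Its site, at cDNA position 2962, had 3 TP10M in the youngest fruit (5 days after pollination), 50 in mature green fruit, 55 in breaker fruit and 38 in fruit 7 days past breaker. The youngest fruit was low and the other 3 stages lay between 38 and 55 TP10M. Their spread depends on the scaling of the libraries. The log2 ratio of the last stage over breaker was -0.52, and -0.99 with median-of-ratios scaling. Among cDNAs listed opposite position 10 the site ranked 219 of 2249, 23 of 2045, 21 of 1003 and 12 of 1759 in stage order.

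Solyc10g078700 had nearly all of its cut ends in green fruit. Its site, at cDNA position 775, had 24 TP10M in the youngest fruit, 51 in mature green fruit and 1 in each of the 2 ripening stages. Both ripening stages were close to the limit of the unit, although the peak remained the highest or tied highest position on the cDNA in each library.

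Solyc05g012040 also kept its cut ends through ripening, at a lower level. Its site at cDNA position 1430 had 1, 15, 8 and 15 TP10M in stage order, so that the mature green and the last stage were equal and the youngest fruit was lowest. Solyc04g045560 resembled Solyc10g078700: the site at cDNA position 799 had 7, 17, 1 and 2 TP10M in the same order, with the highest value at mature green.

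The remaining 4 genes had low values. Solyc03g114850 (cDNA position 1482) and Solyc12g038520 (position 982) had the same 2, 8, 0 and 2 TP10M in stage order, and also the same values opposite position 9. They cannot be taken as independent members. Both were highest at mature green. Solyc10g009080 (position 807) had 1 TP10M in mature green fruit, against 2 in the youngest fruit. Solyc05g015840 (position 760) had 1 TP10M in each of these libraries. Neither site was listed at breaker or at 7 days after breaker.

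**Figure D1:**
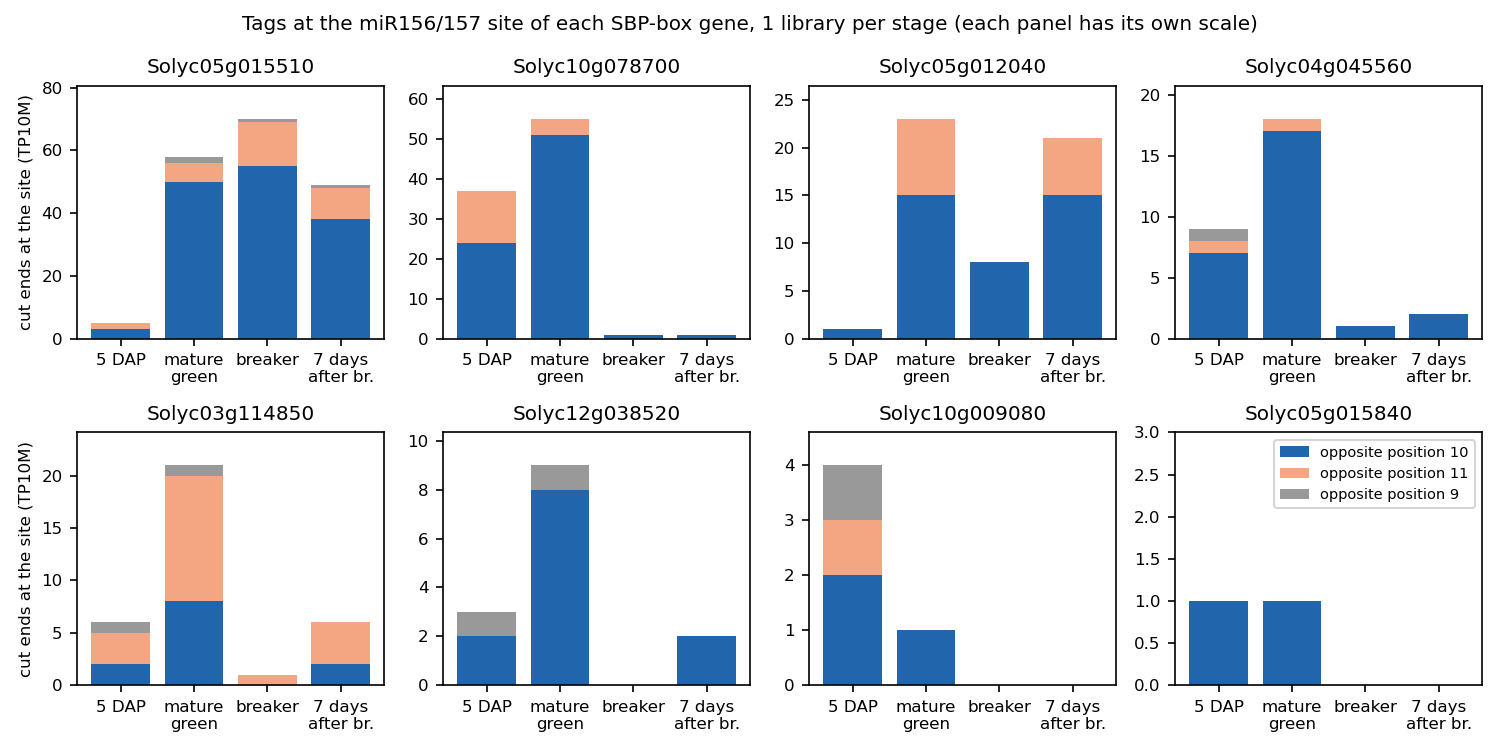
Tags at the miR156_157 site (TP10M, vertical axis) of the 8 SBP-box genes by stage, as stacked bars for the ends opposite positions 10, 11 and 9, with 1 library per stage and a separate scale in each panel. Solyc05g015510 and Solyc05g012040 keep their ends at breaker and after it (55 and 8 TP10M at breaker, position 10), while Solyc10g078700 and Solyc04g045560 are at 1 TP10M at breaker.

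Of the 8 members 6 reached 5 TP10M at position 10 in a library, and mature green was the highest stage, alone or tied, for 5 of these 6. The 5 include Solyc03g114850 and Solyc12g038520, whose site values are identical, and the number was 4 with identical members counted once. These 2 genes reached 5 TP10M only at mature green, which fixes their highest stage, so the count is a description. Solyc05g012040 was tied between mature green and the last stage, Solyc05g015510 was highest at breaker and 0 of the 6 were highest at 5 days after pollination. Among the 325 other cDNAs that reached this level, 22.5% were highest at mature green and 38.8% at 5 days after pollination. Among the 78 of them with a category 0 or 1 site these shares were 25.6% and 52.6%. Summed over the members, the sites held 42, 151, 65 and 60 TP10M in stage order, of which the 2 most abundant sites made up 73.8%, 66.9%, 96.9% and 88.3%.

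Between the 2 green stages, site and whole-cDNA values went opposite ways in part of the members. At mature green the site had more tags and the whole cDNA fewer in Solyc10g078700, Solyc04g045560, Solyc03g114850 and Solyc12g038520. Both were higher in Solyc05g015510 and Solyc05g012040 and both lower in Solyc10g009080, while in Solyc05g015840 only the whole cDNA was lower. The whole-cDNA difference was under 2-fold in Solyc04g045560 (log2 ratio -0.34) and Solyc12g038520 (-0.74). How many other cDNAs had site and whole-cDNA values going opposite ways was not counted. From mature green to breaker both values were lower in Solyc10g078700 and Solyc04g045560. Solyc05g015510 had 520, 895, 633 and 652 TP10M on its whole cDNA in stage order, and Solyc05g012040 had 107, 117, 102 and 193. These values varied less between stages than those of the sites. Solyc10g078700 had 660, 117, 7 and 4 TP10M, and was highest at 5 days after pollination, when its site was not. Solyc04g045560 had 165, 130, 63 and 29 TP10M, each stage lower than the one before. Solyc12g038520 had 69, 41, 10 and 8, and Solyc03g114850 had 424, 178, 29 and 66. Solyc10g009080 had 32 TP10M at mature green against 97 at 5 days after pollination, and Solyc05g015840 had 18 against 39. A whole-cDNA value is given only where a peak is listed, so those of the last 2 genes at breaker and after it are unknown and are not zeros.

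**Figure D2:**
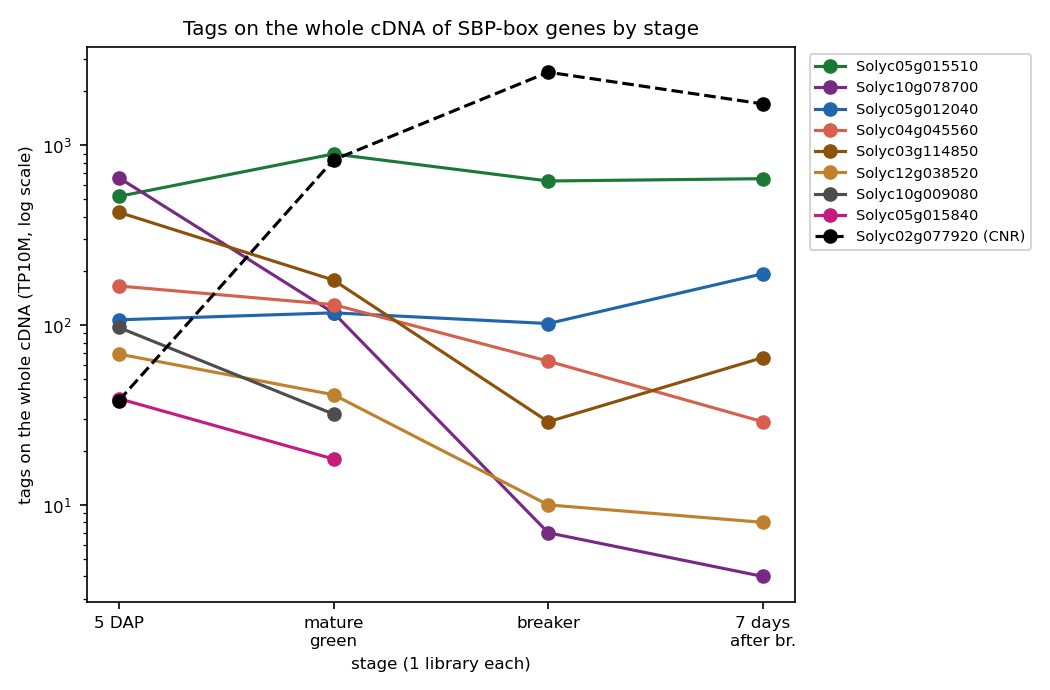
Tags on the whole cDNA (TP10M, log scale) of the 8 SBP-box genes and, dashed, CNR at the 4 stages, with 1 library each; a missing point is a value that the tables do not list. Solyc05g015510 stays between 520 and 895 TP10M, Solyc10g078700 is at 4 in the oldest fruit and at 660 in the youngest, and CNR has 38 and 2549 at its lowest and highest stage.

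The share of a cDNA's tags that lay at the microRNA site was higher at mature green than at 5 days after pollination. It was 43.6% against 3.64% for Solyc10g078700, whose site had more tags at mature green while the rest of its cDNA, outside positions 9 to 11, had 62 TP10M against 623. It was 5.59% against 0.58% for Solyc05g015510 and 12.8% against 0.93% for Solyc05g012040. For Solyc04g045560 the share was 13.1% against 4.24%. For Solyc12g038520 it was 19.5% against 2.90% and for Solyc03g114850 it was 4.49% against 0.47%, with the same site values in both.

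Rounding limits these shares, since each value could lie up to 0.5 TP10M to either side. With that allowed for, the mature green share was higher in 6 of 8 members and lower in 0. Among 1204 cDNAs with a site listed in both libraries, 20.8% were higher and 18.9% lower by the same rule, and 37.5% each way among the 96 with a category 0 or 1 site. For Solyc10g009080 (3.13% against 2.06%) and Solyc05g015840 (5.56% against 2.56%) the limits overlapped. These limits leave out counting error.

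The share was also above that of the youngest fruit at the last stage. At 7 days after breaker it exceeded that at 5 days after pollination beyond rounding in 6 of the 6 members listed in both libraries, against 23.1% of 1030 cDNAs and 32.9% of the 73 with a category 0 or 1 site. It was lower in 0 members, against 20.9% and 45.2% of these cDNAs. The site itself had more tags at the last stage only in Solyc05g015510 and Solyc05g012040. It had fewer in Solyc10g078700 (1 against 24 TP10M) and Solyc04g045560 (2 against 7), and 2 in both libraries in Solyc03g114850 and Solyc12g038520. In these 4 genes the whole-cDNA value was lower, at 4 against 660, 29 against 165, 66 against 424 and 8 against 69 TP10M. Solyc03g114850 and Solyc12g038520, with identical site values, are not independent. The shares at 7 days after breaker were 5.83% for Solyc05g015510, 7.77% for Solyc05g012040 and 6.90% for Solyc04g045560. They were 3.03% for Solyc03g114850 and 25% for both Solyc10g078700 and Solyc12g038520. The last of these rest on 1 of 4 and 2 of 8 TP10M, and their rounding limits are wide (11.1% to 42.9% and 17.6% to 33.3%).

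At breaker the share was lower than at mature green in 5 of 6 members and higher in 1, Solyc05g015510, with 8.69% against 5.59%. Of those lower, Solyc10g078700 and Solyc04g045560 had 1 TP10M at the breaker site. Solyc03g114850 and Solyc12g038520 had 0 there, and with identical site values they are not independent. Among 675 cDNAs 32.3% were lower and 18.5% higher, and with a category 0 or 1 site 52.8% and 33.3% of 72. From there to 7 days after breaker 3 of 6 members were higher (34.7% of 659 cDNAs) and 1 was lower (19.7%), again Solyc05g015510. In the 66 cDNAs with a category 0 or 1 site these percentages were 36.4% and 37.9%. The 3 higher members, Solyc04g045560, Solyc03g114850 and Solyc12g038520, had 0 or 1 TP10M at the breaker site and 2 at the last stage. If values were truncated instead of rounded, 2 of 6 were higher. Summed over the members, the site held 2.02%, 9.88%, 7.70% and 6.30% of the tags on their cDNAs in stage order.

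**Figure D3:**
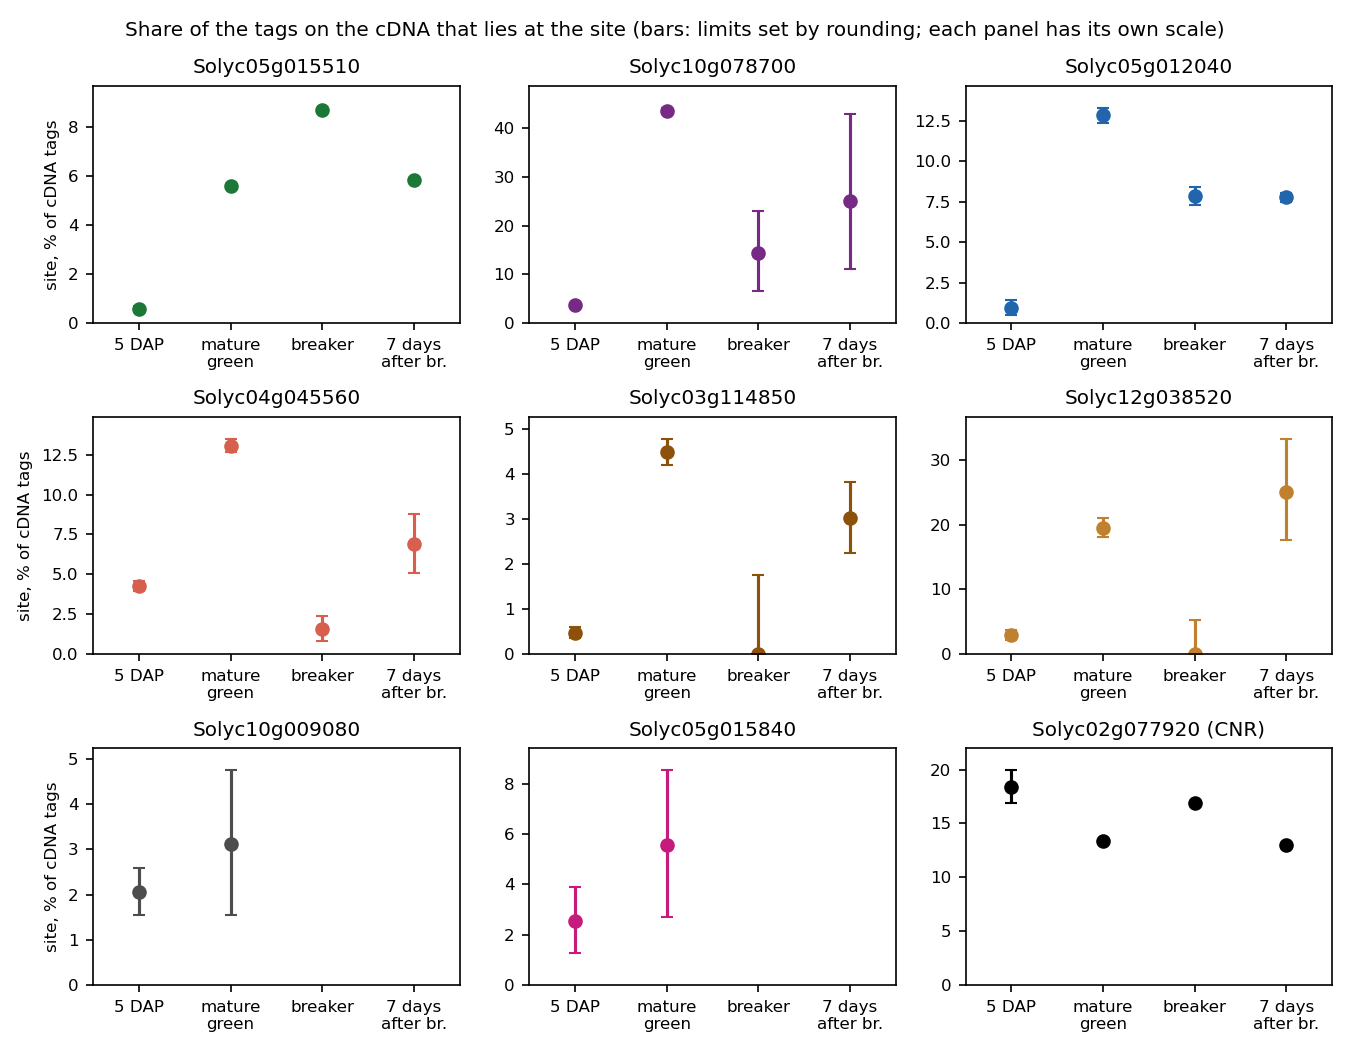
Share of the tags on a cDNA that lies opposite position 10 of miR156_157 (percent, vertical axis) by stage for the 8 SBP-box genes and CNR, with bars for the limits that rounding to whole TP10M sets and a separate scale in each panel. In 6 of the 8 genes the mature green share lies above that at 5 days after pollination beyond these limits, while CNR has 13.4% at mature green and 18.4% at 5 days after pollination.

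Site values at mature green were above those at 5 days after pollination in 6 of 8 members, equal in Solyc05g015840 and below them in Solyc10g009080. A call required the 2 libraries to sum to at least 10 TP10M and the ratio, as log2 of TP10M plus 1, to reach 2-fold. This scale understates differences of low values. By this rule 6 of the 6 members that reached the minimum were higher and 0 lower. Of the 170 cDNAs that reached it, 32.4% were higher and 29.4% lower. The members below the minimum were Solyc10g009080 and Solyc05g015840. With 1 to 3 TP10M in the youngest fruit, 4 of the 6 (Solyc05g015510, Solyc05g012040, Solyc03g114850 and Solyc12g038520) reached it only through mature green, which fixes their call, so the count is a description. The log2 ratio was 3.67 for Solyc05g015510, 3.00 for Solyc05g012040, 1.58 for both Solyc03g114850 and Solyc12g038520, 1.17 for Solyc04g045560 and 1.06 for Solyc10g078700. The median was 1.58 over the 6 members and -0.24 over the 170 cDNAs. A pseudocount of 5 TP10M left 2 members called, Solyc05g015510 and Solyc05g012040. With positions 9 to 11 summed, Solyc10g078700 (0.56) and Solyc04g045560 (0.93) were under 2-fold.

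Whole-cDNA values in the same libraries gave 0 members higher and 4 of 8 lower, where 10.3% of 2348 cDNAs were higher and 18.7% lower. The 4 were Solyc10g078700 (-2.49), Solyc10g009080 (-1.57), Solyc03g114850 (-1.25) and Solyc05g015840 (-1.07). The median log2 ratio was -0.91 over the members and -0.23 over all of these cDNAs.

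At breaker 2 of the 4 members that reached the minimum were at least 2-fold lower than at mature green, and 0 were higher. Over 132 cDNAs 53% were lower and 26.5% higher, so the members' share was near that of all cDNAs. The 2 called, Solyc10g078700 and Solyc04g045560, had 1 TP10M at breaker and reached the minimum only through mature green. That fixes their call, so the count is a description. Solyc03g114850 and Solyc12g038520, with 8 TP10M at mature green and 0 at breaker, missed the minimum. The log2 ratio was -4.70 for Solyc10g078700 and -3.17 for Solyc04g045560, while Solyc05g015510 (0.13) and Solyc05g012040 (-0.83) were within 2-fold. The whole-cDNA value was lower in 4 of 6 members and higher in 0, against 28.8% and 8.67% of 1431 cDNAs. These 4 were Solyc10g078700 (-3.88), Solyc03g114850 (-2.58), Solyc12g038520 (-1.93) and Solyc04g045560 (-1.03).

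From breaker to 7 days after breaker only Solyc05g015510 (-0.52) and Solyc05g012040 (0.83) reached the minimum at the site, and neither was called, where 40.4% of 114 cDNAs were higher and 27.2% lower. On the whole cDNA Solyc03g114850 was higher (1.16) and Solyc04g045560 lower (-1.09) of 6 members, where 23.5% of 1378 cDNAs were higher and 7.55% lower.

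The members differed in direction between the last stage and the first. At 7 days after breaker Solyc05g015510 (3.29) and Solyc05g012040 (3.00) were higher at the site than at 5 days after pollination and Solyc10g078700 was lower (-3.64), and 3 of 8 members reached the minimum, each through its higher stage. With no minimum 4 members were lower, among them Solyc10g009080 and Solyc05g015840, whose unlisted sites at the last stage were counted as 0. Over 166 cDNAs 27.7% were higher and 47% lower. On the whole cDNA 4 of 6 members were lower and 0 higher, against 24.2% and 13.6% of 2089 cDNAs. They were Solyc10g078700 (-7.05), Solyc12g038520 (-2.96), Solyc03g114850 (-2.67) and Solyc04g045560 (-2.47). The 4 comparisons share libraries, so their results are not independent of each other.

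**Figure D4:**
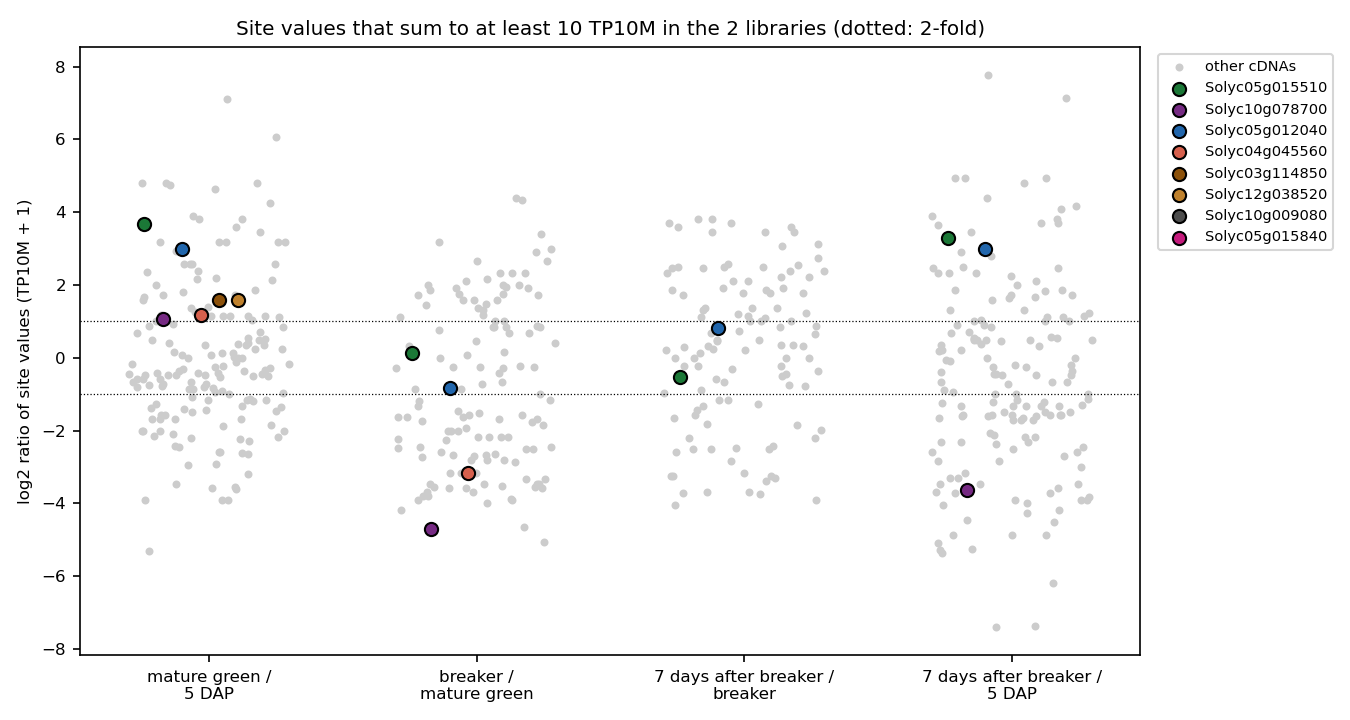
Log2 ratio of site values (TP10M plus 1, vertical axis) in 4 pairs of libraries for the SBP-box genes (coloured) and other cDNAs (grey) whose values sum to at least 10 TP10M, with dotted lines at 2-fold. The 6 members in the mature green over 5 days after pollination pair lie between 1.06 and 3.67, and at breaker over mature green Solyc10g078700 is at -4.70 and Solyc05g015510 at 0.13.

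Cut ends of the members lay mainly opposite position 10, with 1 exception. Position 10 held 63.6%, 81.2%, 80.2% and 74.1% of the members' tags at positions 9 to 11 in stage order. For Solyc03g114850 the ends opposite position 11 were more abundant in each library, at 3, 12, 1 and 4 TP10M against 2, 8, 0 and 2 opposite position 10. Solyc12g038520, whose values at positions 9 and 10 are the same, was not listed at position 11. In Solyc10g078700, position 11 had 4 TP10M in mature green fruit against 13 in the youngest fruit, beside 51 and 24 at position 10. In Solyc05g015510 that position had 2, 6, 14 and 10 TP10M in stage order. Solyc05g012040 had 8 TP10M there in mature green fruit and 6 in the last stage, and no listed peak at the other stages.

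CNR (Solyc02g077920), the SBP-box gene with a penalty of 1, had its most abundant tags at breaker, both at its site and on its whole cDNA. Its site had 7, 111, 431 and 221 TP10M in stage order and its whole cDNA 38, 829, 2549 and 1698. From 5 days after pollination to mature green both were higher (log2 ratios 3.81 and 4.41), whereas 0 members were called higher on the whole cDNA. The share at the CNR site was 18.4%, 13.4%, 16.9% and 13.0% in stage order. At breaker the CNR site held 431 TP10M, against 65 for the other SBP-box genes together.

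Of the AP2-like genes under miR172, which lie downstream of SPL genes in Arabidopsis, more were lower than higher between the 2 green stages. Of 8 such genes 1 was higher and 4 were lower at mature green than at 5 days after pollination, with a median log2 ratio of -1.10, where 32.4% and 29.4% of all cDNAs that reached the minimum were higher and lower. At breaker against mature green 1 of 7 was higher and 4 were lower, near the 53% lower of all cDNAs. At 7 days after breaker 2 of 5 were higher and 3 lower than at breaker (40.4% and 27.2% of all cDNAs). Against 5 days after pollination 2 of 8 were higher and 6 lower at the last stage (27.7% and 47%). The gene higher at breaker was AP2a (Solyc03g044300), a regulator of ripening, whose site had 127, 164, 3353 and 465 TP10M in stage order. A pair of these genes has identical site values and is not independent. AGO1 (Solyc06g072300), itself a target of miR168, had 225, 100, 17 and 22 TP10M at its site in the same order.

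Outside the 8 members, the site pattern most like that of Solyc05g015510 belonged to CNR. Likeness was the Euclidean distance over 4 libraries between log2 values after each gene's mean was taken off, over 58 cDNAs that are not members, with a category 0 or 1 site and at least 10 TP10M in a library. The distance was 1.69 for CNR, and the member Solyc05g012040 was nearer, at 1.24. It was 1.82 for the receptor-like kinase genes Solyc01g005720 and Solyc01g005760, which both had 0, 27, 8 and 30 TP10M in stage order at a miR6022 site. For Solyc10g078700 the nearest were Solyc03g058140, of unknown function (0.86, with 7, 12, 0 and 0 TP10M), the NBS-LRR gene Solyc07g005770 (1.59, with 10, 10, 0 and 1) and growth-regulating factor 4, Solyc08g005430 (1.60, with 226, 118, 7 and 15).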

How the data were processed

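PARE libraries of 4 fruit stages were used, with 1 library per stage. Per the file headers, the deposited tables are CleaveLand output for ITAG2.3 cDNAs. Their tag values are normalized scores in tags per 10000000, rounded by the authors. Categories and the TargetFinder penalty are deposited scores, and the p-values and q-values are the authors', per the file headers. The submitters' processing notes name CASAVA 1.8.0. The sources used here do not give the aligner.

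Python 3.11.15 with pandas 2.3.3 summed distinct position 10 sites per cDNA, with a dash adding 0. Columns were matched to stages by the abbreviation shared with the sample titles. The call rule was tested on simulated data. Members and lists were chosen with earlier results of these data known. All 8 members, CNR, the 3 most abundant genes of the pathway list (AP2a, CNR and AGO1) and the 3 nearest patterns per leading member are named. The comparison of site shares, and its rounding limits, were added after the values had been seen. Alternatives were median-of-ratios scaling over 1021 cDNAs, other pseudocounts and minimums, summed positions and whole-cDNA values. No sequence of these genes or microRNAs was used here.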

Additional observations from a re-analysis of the deposited data

How the results depend on the processing

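The depth of each library is unknown, so differences of a few TP10M have no error, and most members are that low in ripening fruit. For mature green over 5 days after pollination, the 6 members higher became 2 with a pseudocount of 5, 2 with a minimum sum of 50 and 0 with whole-cDNA values, which gave 4 lower in place of 0. Scaling left 4, since Solyc03g114850 and Solyc12g038520 then fell short of the minimum sum, and summed positions also left 4. For breaker over mature green, the 2 lower became 1 with a minimum of 50, 6 with no minimum, 4 with positions 9 to 11 summed and 4 with whole-cDNA values. For 7 days after breaker over breaker, the 0 higher became 2 with no minimum, 1 with summed positions and 1 with whole-cDNA values, which also gave 1 lower in place of 0. For 7 days after breaker over 5 days after pollination, the 2 higher became 0 with a minimum of 50 and 0 with whole-cDNA values. The 1 lower became 0, 4, 2 and 4 with a minimum of 50, no minimum, summed positions and whole-cDNA values. The lower counts with no minimum, here and for breaker over mature green, include Solyc10g009080 and Solyc05g015840. Their sites, unlisted in ripening fruit, were counted as 0. Counting from 1 TP10M, 2 members were highest at 5 days after pollination in place of 0. With scaling or with summed positions, 0 were highest at 7 days after breaker in place of 1. The summed share at 5 days after pollination (2.02%) was 3.17% with summed positions and 1.27% without Solyc10g078700, and that at breaker (7.70%) was 4.74% without Solyc05g015510. Scaling shifts log2 ratios of abundant cDNAs by 0.12, 0.42, -0.48 and 0.06 in the order of the comparisons above. No paired analysis was possible because each stage has 1 library. The cause of these differences was not tested beyond what each setting changes by construction.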

Other observations

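SBP-box genes outside the miR156_157 list had almost no tags at any listed peak. Solyc01g068100, annotated as squamosa promoter binding protein-like 1, had 1713 TP10M on its whole cDNA in mature green fruit and 1924 in the last stage (7 days after breaker), more than any of the 8 genes in those libraries. Its listed peaks, under miR158 and miR5301_star, were at 0 TP10M. Solyc10g078710, with an SBP-box domain and no given function, had at most 2 TP10M at a peak under miR414. Both genes were picked by their annotation after the tables had been seen.

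The most abundant cDNAs outside the SBP-box family under the name miR156_157 were poor matches. Solyc04g071610 (water-stress inducible protein 3), Solyc03g116230 (an agglutinin) and Solyc02g093110 (a ubiquitin-conjugating enzyme) had up to 659, 55 and 11 TP10M opposite position 10. Each had an alignment penalty of 7 and was in category 2 wherever it was listed.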
